A study of Mus musculus with 7 samples.

Results

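The ISG15 conjugation system was followed through 5 genes, chosen by gene symbol: Isg15, Uba7, Ube2l6, Herc6 and Usp18. All 5 were among the 22680 genes of the deposited table and all 5 passed the expression minimum of the genotype comparison. RNA had been sequenced from cells that were sorted out of C57BL/6 fetal livers taken 13.5 days post coitum. The series holds 3 libraries of Uhrf1-/- LSK cells, 1 library of wild-type LK cells and 3 libraries of wild-type LSK cells. The LSK fraction (lineage-negative, positive for Sca-1 and c-Kit) contains the hematopoietic stem cells and multipotent progenitors, while the LK fraction, c-Kit-positive but Sca-1-negative, contains more committed progenitors. UHRF1 recognises hemimethylated DNA after replication and recruits the methyltransferase DNMT1, which copies methylation to the new strand. The labels name neither the allele and means of deletion nor the animals or litters behind each library.

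ISG15 is a small protein built of ubiquitin-like domains that cells make in response to type I interferon. It is attached to other proteins by a chain of enzymes like that of ubiquitin. UBA7 activates it, UBE2L6 carries it, a HECT-type ligase, which in mice is HERC6, passes it to the target, and the protease USP18 takes it off again. USP18 also binds the interferon receptor chain IFNAR2 and dampens interferon signalling. The genes of the system are themselves interferon-stimulated genes.

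Uhrf1, the gene named by the genotype label, was at 10.2, 8.78 and 18.6 FPKM (sequenced fragments scaled by transcript length and library size) in the Uhrf1-/- LSK libraries, 115.9 FPKM in the LK library and 63.0, 66.8 and 112.8 FPKM in those of wild-type LSK cells, so every library went with its label. Ly6a, which encodes Sca-1, was between 36.9 and 96.4 FPKM in Uhrf1-/- LSK cells, at 0.321 FPKM in LK cells and between 26.4 and 56.8 FPKM in wild-type LSK cells, as the sort would give. The 7 LSK markers, Ly6a among them, summed to 310.9 to 462.5 FPKM in Uhrf1-/- LSK, 176.0 FPKM in LK and 479.3 to 742.8 FPKM in wild-type LSK libraries. Ly6a was the 1 marker with a positive log2 fold change (Uhrf1-/- over wild-type LSK), the other 6 were negative, and the median was -0.55. The ranges of 4 of the 7 were lower without overlap, against 6.16% of all genes tested. The receptor tyrosine kinase gene Flt3 was called lower with replicate number as a block (log2 fold change -1.73, limma adjusted p = 0.000442), and the part of these markers in the levels of the conjugation genes was not tested. The 7 lineage markers in the table summed to 5.88 to 9.01 FPKM in Uhrf1-/- LSK, 22.0 FPKM in LK and 7.94 to 10.2 FPKM in wild-type LSK libraries. Cd3e was listed at 0 in all 7 libraries, and Itgam was at 3.45 to 5.76 FPKM in Uhrf1-/- and 5.05 to 6.71 FPKM in wild-type LSK cells. Per library, the count values added up to 15556959 to 21017402, which corresponds to an estimated 16808501 to 25803042 reads. All 35 member values came out as whole reads within 0.02 reads, between 90 and 2124 reads each, which gives a counting error of 10.5% at the lowest and 2.17% at the highest. Uhrf1-/- replicate 3 and wild-type replicate 2 were the libraries least like the others of their genotype. The replicate 3 libraries of both genotypes deviated from their group means together (r = 0.645 over all genes tested), so each member is given library by library.

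Isg15 and Ube2l6 were higher in every Uhrf1-/- LSK library than in any wild-type LSK library, by 4.29 and 2.54 times at the mean FPKM. Both passed the test when replicate number was a block and neither passed without it. Uba7 was also higher without overlap, by 1.45 times, but did not pass. Usp18 was higher in replicates 1 and 2 and not in replicate 3, and Herc6 overlapped between genotypes. In FPKM the LK library had less of Isg15, Uba7, Ube2l6 and Usp18 than any wild-type LSK library. For Ube2l6 the gap was small, at 19.88 against 20.05 FPKM in the lowest wild-type LSK library. Herc6 was higher in LK cells in FPKM but not on the scaled count values.

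**Figure D1:**
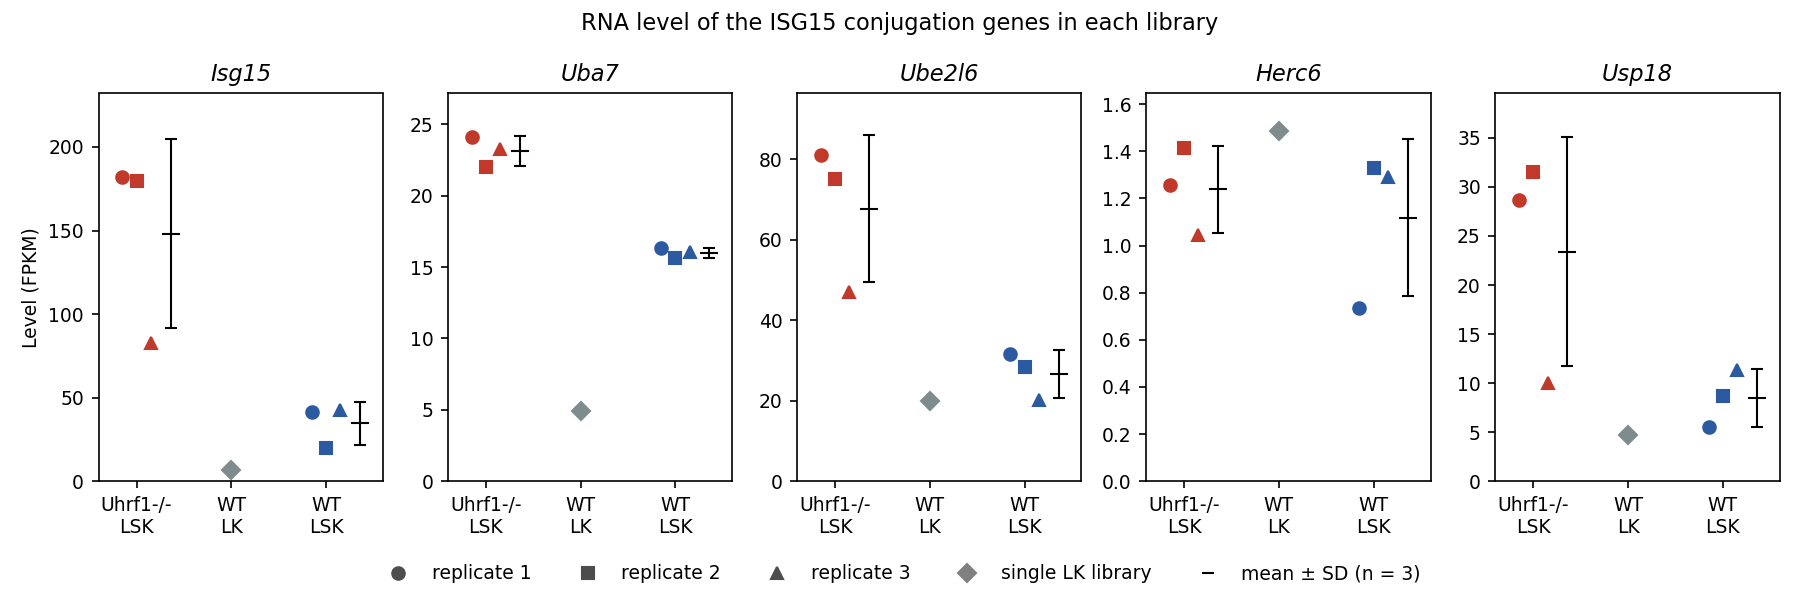
Level in FPKM (vertical axes, each from 0) of the 5 genes in the 7 libraries, with Uhrf1-/- LSK on the left, the single wild-type LK library in the middle and wild-type LSK on the right; bars are mean and SD of 3 libraries. Isg15, Uba7 and Ube2l6 do not overlap between the LSK genotypes, while Herc6 and Usp18 do.

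Isg15 (Entrez gene 100038882; protein-coding, minus strand of chromosome 4, positions 156199424 to 156200818 of GRCm38) encodes the modifier itself. It stood at 182.3, 179.5 and 82.6 FPKM in Uhrf1-/- LSK replicates 1, 2 and 3, at 6.73 FPKM in LK cells and at 41.2, 19.8 and 42.6 FPKM in wild-type LSK replicates 1, 2 and 3. Uhrf1-/- replicate 3 was the lowest of its group and still above the highest wild-type library. The mean was 148.1 ± 56.8 FPKM in Uhrf1-/- and 34.6 ± 12.8 FPKM in wild-type LSK cells (SD, n = 3 each). The log2 fold change was 2.06 on the log2(FPKM + 1) scale (SE 0.40, 95% interval 1.18 to 2.93), which ranked 18 by size among 10608 genes tested. Its limma adjusted p, taken over all genes tested, was 0.0894 without the replicate block and 0.0108 with it. The unblocked log2 fold change was 2.43 without Uhrf1-/- replicate 3 and 1.71 without wild-type replicate 2, and neither passed.

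Ube2l6 (Entrez gene 56791; protein-coding, plus strand of chromosome 2, 84798828 to 84810003) encodes the conjugating enzyme that carries ISG15. It stood at 81.0, 75.1 and 47.0 FPKM in Uhrf1-/- replicates 1, 2 and 3, at 19.9 FPKM in LK cells and 31.7, 28.4 and 20.05 FPKM in wild-type LSK libraries of the same numbers. Replicate 3 was the lowest of each genotype, and the difference within a replicate number was nearly the same throughout. The mean was 67.7 ± 18.2 FPKM in Uhrf1-/- and 26.7 ± 5.99 FPKM in wild-type LSK cells (SD, n = 3 each; log2 fold change 1.30, SE 0.30, 95% interval 0.63 to 1.96). The limma adjusted p was 0.159 without the block and 0.00352 with it.

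Uba7 (Entrez gene 74153; protein-coding, plus strand of chromosome 9, 107975567 to 107984056) encodes the activating enzyme. Its levels were 24.1, 22.0 and 23.3 FPKM in Uhrf1-/- LSK cells, 4.93 FPKM in LK cells and 16.3, 15.7 and 16.0 FPKM in wild-type LSK cells. It varied least among replicates relative to its mean, with 23.1 ± 1.06 FPKM in Uhrf1-/- and 16.0 ± 0.338 FPKM in wild-type LSK cells (SD, n = 3 each). The log2 fold change was 0.50 (SE 0.24, 95% interval -0.02 to 1.02), with a limma adjusted p of 0.928 without the block and 0.404 with it. The moderated test partly replaces a gene's own spread by that of other genes at its level, so the narrow spread of Uba7 counted only in part.

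Usp18 (Entrez gene 24110; protein-coding, plus strand of chromosome 6, 121245906 to 121270917) encodes the protease that removes ISG15. It was at 28.7, 31.5 and 10.04 FPKM in Uhrf1-/- replicates 1, 2 and 3, at 4.74 FPKM in LK cells and at 5.49, 8.63 and 11.3 FPKM in wild-type LSK libraries of the same numbers. Uhrf1-/- replicate 3 thus lay inside the wild-type range, below wild-type replicate 3. The mean was 23.4 ± 11.7 FPKM in Uhrf1-/- and 8.49 ± 2.93 FPKM in wild-type LSK cells (SD, n = 3 each). The log2 fold change was 1.26 (SE 0.43, 95% interval 0.32 to 2.21), with a limma adjusted p of 0.571 without the block and 0.297 with it. With the block and without replicate 3 it was 1.97 and passed (limma adjusted p = 2.5e-05), and on the scaled count values with the block it also passed (1.23, adjusted p = 0.0213). It did not pass with the block and without replicate 1 (0.80, adjusted p = 0.109) or without replicate 2 (1.01, adjusted p = 0.788).

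Herc6 (Entrez gene 67138; protein-coding, plus strand of chromosome 6, 57580992 to 57665136) encodes the ligase and was the lowest of the 5 in every library, near the minimum of 1 FPKM for testing. It was at 1.26, 1.41 and 1.05 FPKM in Uhrf1-/- LSK cells, 1.49 FPKM in LK cells and 0.735, 1.33 and 1.29 FPKM in wild-type LSK cells, with 111 to 326 estimated reads per library. The LK library was the highest in FPKM, and the LSK genotypes overlapped. The log2 fold change was 0.09 (SE 0.24, 95% interval -0.44 to 0.62; limma adjusted p = 0.971, and 0.909 with the block), and it turned to -0.05 without wild-type replicate 1. On this scale the interval holds no rise of the size seen for Isg15. The FPKM per 1000 of the count value, which would be constant if each gene had a single length, was 4.56 to 5.02 for Herc6 in Uhrf1-/- LSK, 7.43 in LK and 5.35 to 6.22 in wild-type LSK cells. Its highest value was 1.63 times its lowest over the 7 libraries, against 1.31 times for Isg15 and 1.07 to 1.17 times for the other 3. For Isg15 this quantity was 99.2 to 102.0 in Uhrf1-/- LSK, 77.8 in LK and 93.5 to 99.1 in wild-type LSK cells, and on the scaled count values its log2 fold change was 1.86. The levels of Herc6 and, less so, Isg15 thus depend on which measure is taken.

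**Figure D2:**
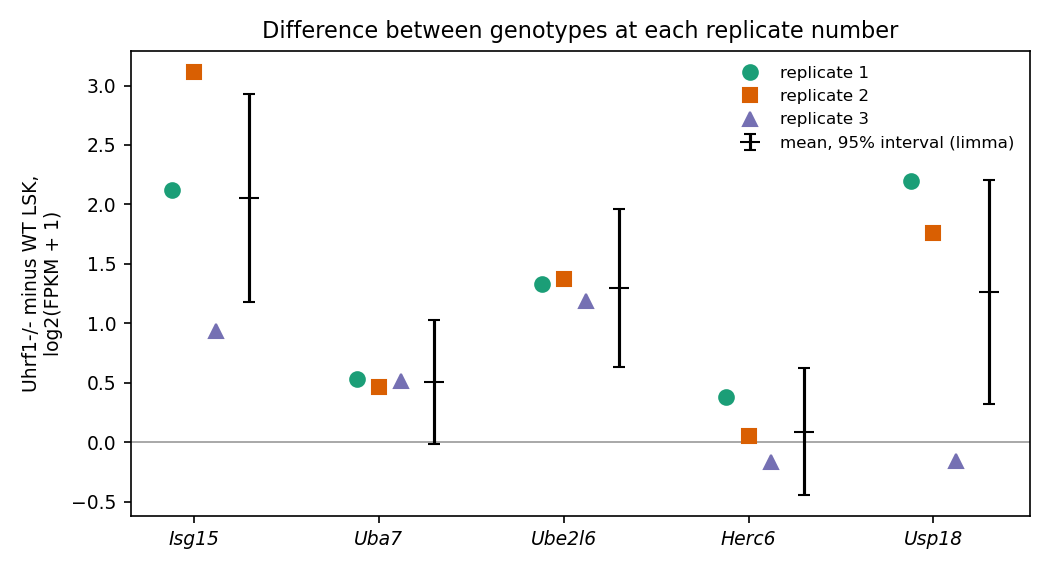
Difference between Uhrf1-/- and wild-type LSK libraries of the same replicate number on the log2(FPKM + 1) scale (vertical axis) for each gene; the black bar is the mean with its 95% limma interval without the block. On this scale Ube2l6 and Uba7 differ by like amounts at all 3 numbers, Isg15 least at replicate 3, and Usp18 and Herc6 lie below 0 at replicate 3.

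Within replicate numbers 1, 2 and 3, Isg15 differed by 2.12, 3.12 and 0.94 on the log2(FPKM + 1) scale, and Usp18 by 2.19, 1.76 and -0.16. Ube2l6 differed by 1.33, 1.37 and 1.19, and Uba7 by 0.53, 0.46 and 0.51. Herc6 differed by 0.38, 0.05 and -0.16. The modifier and its protease therefore had a smaller or no difference at replicate 3, and the activating and conjugating enzymes did not follow them in this. Other than through these values, the difference between replicate numbers was not tested.

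Of the 5 genes, 0 were called without the block, where limma called 0.113% of the 10608 genes tested higher and 0.0566% lower, and 3 had an unadjusted p under 0.05 (Isg15, Ube2l6 and Usp18), as 5.57% of all genes did in either direction. With the block 2 of 5 were called higher and 0 lower, against 1.23% higher and 0.83% lower of all genes tested. The ranges of 3 of 5 did not overlap and were higher in Uhrf1-/- cells, against 4.61% of all genes, while 0 of 5 were lower without overlap, against 6.16%. The median log2 fold change was 1.26 for the 5 genes and -0.03 for all genes tested. The blocked calls of Isg15 and Ube2l6 were lost without replicate 2 (limma adjusted p = 0.134 and 0.109). As nothing ties the replicates to separate animals, p-values measure only the spread among libraries, which may be technical. In bulk RNA, a change in the share of cells that express a gene and a change in RNA per cell cannot be told apart.

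The order of levels among the genes differed among the libraries but did not separate the groups, FPKM being a level per length. Uhrf1-/- replicate 3 had the same order as wild-type LSK replicates 1 and 3. The LK library had the same order as wild-type LSK replicate 2. In Uhrf1-/- LSK cells Isg15 was highest, and its lowest library, at 82.6 FPKM, was just above the highest Ube2l6 library, at 81.0 FPKM. Usp18 and Uba7 followed with means of 23.4 and 23.1 FPKM and overlapping ranges, and Herc6 was last. In wild-type LSK cells Isg15 and Ube2l6 overlapped and changed places in replicate 2, Uba7 and Usp18 followed without overlap, and Herc6 was last. In the LK library Ube2l6 was above Isg15. Isg15 exceeded Herc6 by 79.0 to 145.0 times in Uhrf1-/- LSK cells, by 4.53 times in LK cells and by 14.9 to 56.0 times in wild-type LSK cells.

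The FPKM ratio of an enzyme gene to Isg15 in the same library shows whether they differed alike. Uba7 stood at 0.132, 0.122 and 0.282 of Isg15 in Uhrf1-/- LSK cells, at 0.732 in LK cells and at 0.396, 0.789 and 0.376 in wild-type LSK cells. Herc6 stood at 0.0069, 0.00788 and 0.0127 of Isg15 in Uhrf1-/- LSK cells, at 0.221 in LK cells and at 0.0178, 0.067 and 0.0303 in wild-type LSK cells. The activating enzyme and the ligase were thus lower relative to the modifier in each Uhrf1-/- library than in any wild-type one. Isg15 itself did not overlap between genotypes, so a gene with little difference of its own, as Herc6, can give such a ratio. The share of all genes with such a ratio to Isg15 was not computed, so this is not a trait particular to these enzymes. For the test, the log2 ratio was log2(FPKM + 1) of the enzyme gene minus that of Isg15, which is not the log2 of the FPKM ratios above. Its Uhrf1-/- minus wild-type difference was -1.55 for Uba7 and -1.97 for Herc6. Each had an exact two-sided permutation p of 0.1, the smallest that 3 against 3 libraries allow (adjusted over 4 ratios, 0.2). For Ube2l6 and Usp18 the ratio to Isg15 overlapped between genotypes, with differences of -0.76 and -0.80 (exact permutation p = 0.2 and 0.3). This exact test cannot reach 0.05 with 3 against 3 libraries, so its p-values do not settle whether a ratio differed.

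**Figure D3:**
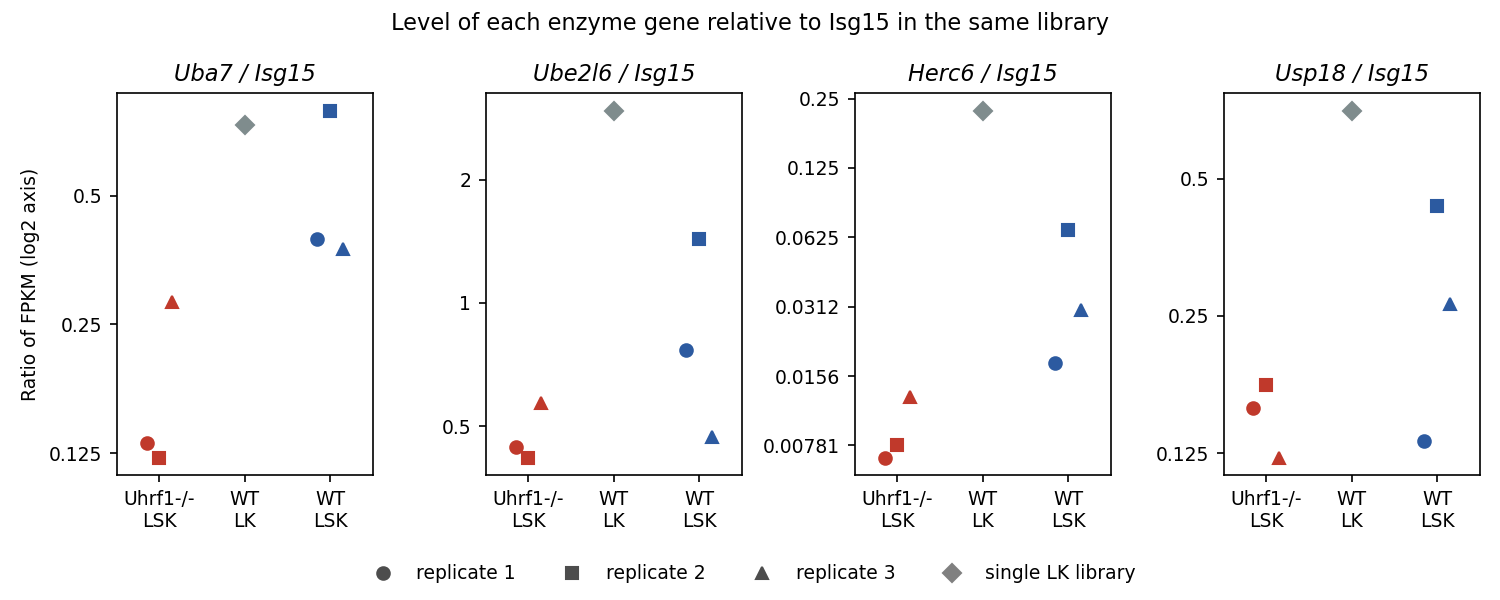
FPKM of each enzyme gene divided by that of Isg15 in the same library (vertical axes on a log2 scale), with Uhrf1-/- LSK on the left, the single LK library in the middle and wild-type LSK on the right. Uba7 and Herc6 ratios do not overlap between the LSK genotypes, those of Ube2l6 and Usp18 do, and the LK library is above every Uhrf1-/- LSK library in each panel.

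The LK library had 1 replicate, so its values have no spread of their own and were not tested. Isg15 was lower in LK cells than the wild-type LSK mean by a difference of -2.13 on the log2(FPKM + 1) scale, and Uba7 by -1.52. Only 2.53% and 6.16% of the genes tested between genotypes lay further below. Ube2l6 and Usp18 differed by -0.38 and -0.68, and Herc6 by 0.24. In FPKM, being below all 3 wild-type LSK libraries, as 4 of the 5 genes were, held for 31.1% of all genes. Being above them, as Herc6 was in FPKM but not on the scaled count values, held for 32.5%. LK cells also had less RNA of Irf7, a transcription factor that drives interferon genes, at 2.95 FPKM against 17.0 ± 0.749 FPKM in wild-type LSK cells (SD, n = 3).

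The start of Isg15 is shown because its 250 upstream bases hold the motif GAAANNGAAA, the core of the interferon-stimulated response element that binds IRF factors. The sequences are from RefSeq's GRCm38.p6 annotation, 5′ to 3′ on each gene's own strand, and end at the last base before the annotated start; capitals mark the motif on either strand. Ube2l6, which also passed with the block, and Herc6, which overlapped between genotypes, are shown beside it at the same distance.
Isg15, chr4:156200819-156200938, minus strand: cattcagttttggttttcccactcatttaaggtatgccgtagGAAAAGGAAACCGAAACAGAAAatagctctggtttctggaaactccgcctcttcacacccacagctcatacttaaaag
Ube2l6, chr2:84798708-84798827, plus strand: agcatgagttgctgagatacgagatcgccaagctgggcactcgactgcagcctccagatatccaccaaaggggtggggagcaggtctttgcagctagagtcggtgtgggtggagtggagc
Herc6, chr6:57580872-57580991, plus strand: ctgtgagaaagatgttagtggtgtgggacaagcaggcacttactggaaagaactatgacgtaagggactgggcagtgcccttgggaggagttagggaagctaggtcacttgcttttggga

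Isg15 had 3 matches on its own strand that overlap one another, beginning 78, 72 and 66 bases before the start. Of 32851 promoters of the same length, 2.98% held at least 1 match and 4 held 3 or more. The 250 bases upstream of Ube2l6, Herc6 and Uba7 held 0 matches, which says only that these letters are not in this window. Usp18 had no entry among the promoters used, so its upstream bases were not examined. CpG pairs, the sites that Uhrf1 and Dnmt1 act on, numbered 4 in the 250 bases of Isg15, 11 in those of Ube2l6 and 1 each in those of Uba7 and Herc6, against a median of 6 over all promoters. DNA methylation was not measured in the data used here.

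Genes around the system were counted from lists chosen with earlier results of these data known. Of 13 further genes tied to ISG15 or Usp18, 12 were tested and 0 passed in either limma fit, where at most 1.23% of all genes were called in 1 direction, with 0 at an unadjusted p under 0.05 and a median log2 fold change of 0.03. Trim25, a ligase also reported to act on ISG15, averaged 11.1 ± 0.621 FPKM in Uhrf1-/- and 7.89 ± 3.39 FPKM in wild-type LSK cells (SD, n = 3 each; log2 fold change 0.52, limma adjusted p = 0.942). Arih1, a ligase that can work with UBE2L6 in human cells, averaged 4.12 ± 0.703 and 3.79 ± 0.652 FPKM in Uhrf1-/- and wild-type LSK cells. Skp2, part of the ligase that turns over USP18, averaged 7.18 ± 1.05 FPKM in Uhrf1-/- and 11.1 ± 5.18 FPKM in wild-type LSK cells. Of the proteases also reported to act on ISG15, Usp14 had a log2 fold change of -0.39 and Usp16 of -0.15, neither passing.

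Of 12 interferon receptor and signalling genes, inhibitors among them, 0 passed without the block and 2 were higher with it, Irf7 and Socs1. Of all genes tested, 1.23% were higher with the block. The list median was 0.17. Ranges were higher without overlap for 1 of the 12, Irf7, against 4.61% of all genes tested. They were lower without overlap for 1, Ifnar1, against 6.16%. Irf7 was at 63.3, 66.1 and 40.1 FPKM in Uhrf1-/- replicates 1, 2 and 3 and at 17.4, 17.5 and 16.2 FPKM in the wild-type ones (log2 fold change 1.64, SE 0.27, limma adjusted p = 0.0531, and 0.000566 with the block). As for Isg15, replicate 3 was the lowest Uhrf1-/- library and did not overlap with the wild-type ones. Socs1, an inhibitor of JAK kinases, overlapped between genotypes, at 29.5, 32.2 and 3.60 FPKM in Uhrf1-/- and 14.2, 10.6 and 1.85 FPKM in wild-type replicates 1, 2 and 3. Its call rested on the block (limma adjusted p = 0.942 without it and 0.0261 with it). Without replicate 2 the blocked calls of Irf7 and Socs1 were lost (limma adjusted p = 0.0743 and 0.357), and on the scaled count values that of Socs1 was (0.316). Irf9 and Stat2, which act together on the response element after interferon binds its receptor, had log2 fold changes of 0.38 and 0.13, neither passing. The receptor chain Ifnar1 averaged 3.20 ± 0.592 FPKM in Uhrf1-/- and 5.16 ± 1.29 FPKM in wild-type LSK cells, and Ifnar2, the chain that USP18 binds, 67.1 ± 14.7 and 72.9 ± 14.3 FPKM (SD, n = 3 each; limma adjusted p = 0.942 and 0.965).

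**Figure D4:**
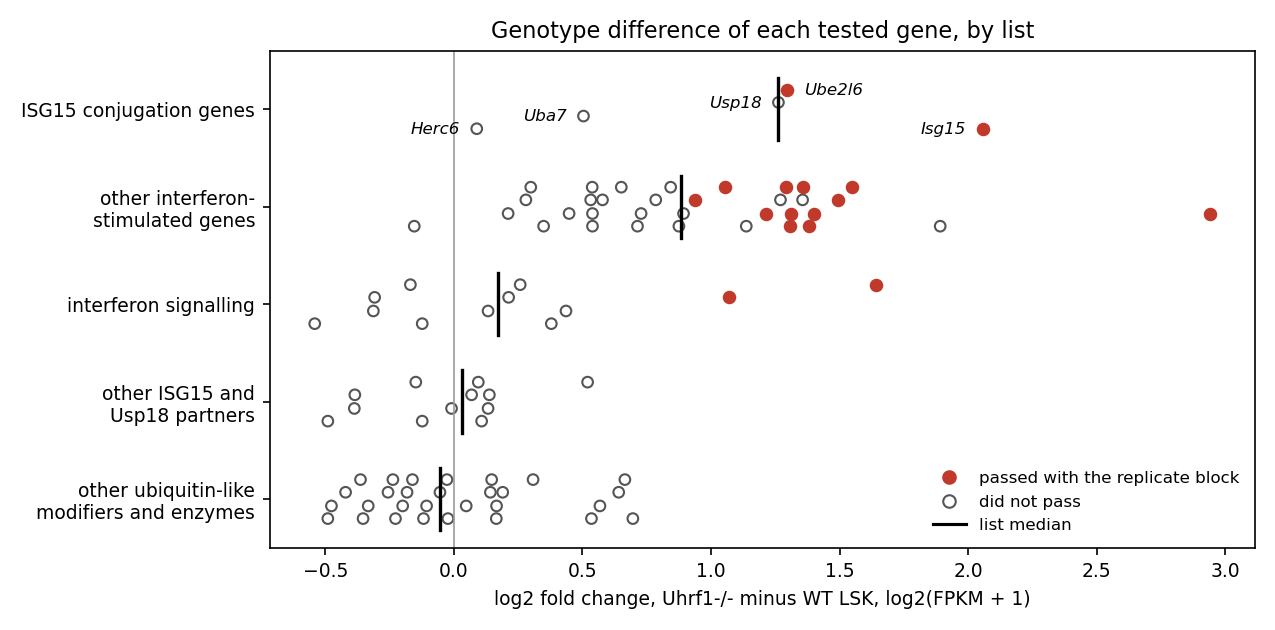
Log2 fold change of every tested gene (horizontal axis, Uhrf1-/- minus wild-type LSK on the log2(FPKM + 1) scale) in 5 lists; filled points passed with the replicate block, open ones did not, and the bar is the list median. The medians are 1.26 for the ISG15 conjugation genes, 0.88 for other interferon-stimulated genes, 0.17 for interferon signalling, 0.03 for other ISG15 and Usp18 partners and -0.05 for other modifiers and enzymes.

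Of 34 other interferon-stimulated genes tested, 33 had a log2 fold change above 0, and 22 had ranges wholly above the wild-type ones, against 4.61% of all genes tested. Their median was 0.88. Without the block 1 was called (Zbp1, a nucleic acid sensor), against 0.113% of all genes called higher, and with it 12, against 1.23%. By replicate number, the median difference was 0.95, 0.94 and 0.64 for this list and 1.33, 1.37 and 0.51 for the 5 conjugation genes. Oas3, an antiviral nucleotide synthetase, averaged 5.52 ± 0.255 FPKM in Uhrf1-/- and 1.28 ± 0.605 FPKM in wild-type LSK cells (SD, n = 3 each; limma adjusted p = 0.0577, and 0.000902 with the block). Without replicate 2 the blocked fit called 1 of the 34.

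Of 31 genes for ubiquitin, other ubiquitin-like modifiers and their enzymes, 29 were tested. Limma called 0 of them with or without the block, a share near the 1.23% higher and 0.83% lower of all genes with it, and 0 were at an unadjusted p under 0.05, with 12 positive and 17 negative log2 fold changes and a median of -0.05. Uba1, which activates ubiquitin, averaged 62.2 ± 5.24 FPKM in Uhrf1-/- and 68.2 ± 12.1 FPKM in wild-type LSK cells. Ube2l3, the ubiquitin-carrying relative of Ube2l6, averaged 116.1 ± 11.0 FPKM and 104.8 ± 0.232 FPKM in the same groups (SD, n = 3 each; log2 fold change 0.14, 95% interval -0.44 to 0.72). Herc4, a relative of Herc6, had a log2 fold change of -0.49 (limma adjusted p = 0.942), and Herc3 was below the minimum for testing. Ubd, which encodes the interferon-inducible modifier FAT10, was listed at 0 in all 7 libraries.

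Over the 7 libraries, which share genotype and cell fraction as sources of variation, the genes most like the mean profile of the 5 were Tgtp2 (r = 0.979), Tgtp1 (0.974), Car3 (0.966), Snx11 (0.964) and Rsad2 (0.956), out of 10649 genes. Tgtp1 and Tgtp2 encode interferon-induced GTPases and are near-identical copies whose reads the counting may divide, and Rsad2 encodes the antiviral enzyme viperin. Car3 encodes a carbonic anhydrase and Snx11 a sorting nexin. Among the members, Isg15 correlated with Uba7, Ube2l6 and Usp18 at 0.894, 0.888 and 0.871 and with Herc6 at -0.151. Over these 7 libraries the highest r of Herc6 was 0.33, with Usp18. Over the 6 LSK libraries alone Herc6 correlated at 0.693 with Usp18 and at 0.245 with Isg15, so its low values rest in part on the single LK library.

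The 9 of 10 macrophage markers in the table summed to 14.3 to 51.3 FPKM in Uhrf1-/- LSK, 8.32 FPKM in LK and 15.3 to 158.4 FPKM in wild-type LSK libraries, with the lowest sum of each genotype in its replicate 3. In Uhrf1-/- replicate 3, 4 of the 9 were listed at 0 (C1qa, Marco, Mertk and Timd4), while Cd68 was at 11.8 FPKM, C1qb at 1.71 FPKM and C1qc at 0.411 FPKM. In wild-type replicate 3, 6 of the 9 were listed at 0 (C1qc, Cd5l, Vcam1, Marco, Mertk and Timd4). Mertk was at most 0.0217 FPKM in any library. The 6 plasmacytoid dendritic cell markers summed to 10.05 to 14.0 FPKM in Uhrf1-/- LSK, 15.001 FPKM in LK and 25.02 to 54.3 FPKM in wild-type LSK libraries. Siglech was listed at 0 in Uhrf1-/- replicates 1 and 3 and in LK. Of these markers 4 were tested, and all 4 were lower without overlap, against 6.16% of all genes tested. Ccr9 was called lower (log2 fold change -1.92, limma adjusted p = 0.0299, and 0.000155 with the block), as 0.0566% and 0.83% of all genes were. The part of the macrophage and plasmacytoid dendritic cell markers in the levels of the conjugation genes was not tested.

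Some reads may not be assigned to a single gene. A transcript of a processed pseudogene shares 482 bases with Isg15 at 95.2% identity and is not in the table. Ube2l6 had 5 such near copies, over 136 to 508 bases at 95.1% to 96.5% identity, of which a transcript of Ift46 (260 bases, 96.5%) belongs to a gene in the table. In the GENCODE annotation of GRCm38, exons of Uba7 and Herc6 overlap a further gene on the same strand and those of Usp18 a noncoding gene on the opposite strand, and neither the labels nor the table's header say whether counting used strand.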

How the data were processed

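For each gene and library the authors deposited a pair of values. The first is named a count per the file headers but was used as a scaled signal: within each library 98.2% to 98.6% of the values below 100 steps are whole steps, to within 0.02, and the others are fractional, so no count model was run. The second is FPKM as the authors deposited it. The submitters' processing notes name TopHat2 2.0.9, Cufflinks 2.1.1 and mm10 but not what each was used for. No source says which annotation was used. Groups, replicate numbers and columns were matched through sample titles.

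The fit used limma 3.58.1 (R 4.3.3) with log2(FPKM + 1) of the 6 LSK libraries, trend and robust moderation and two-sided tests. Genes had to average at least 1 FPKM, and p-values were adjusted by Benjamini-Hochberg over all 10608 such genes, with a threshold of 0.05. The fit without the block was tested on simulated data with changes larger than those of the members. The blocked fit was not tested in this way. Same-numbered libraries deviated from their group means together (r = 0.349, 0.332 and 0.645, all over 0.1), so a fit with the number as a block is given where it changes a call. This pairing is read from the data, not the labels, and numbers 1 and 2 are poorly told apart (0.213 and 0.159 across them). No LSK library was a copy of another (median chi-square per gene of 3.31 or more, where sampling noise gives 0.455). Ratios to Isg15, taken as differences of log2(FPKM + 1), were compared by exact permutation. Coordinates are RefSeq's for GRCm38, matched by gene ID. Near-identical transcripts were sought with blastn 2.17.0 at 95% identity over 100 bases.

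The members and lists were chosen with earlier results of these data known. The naming rule took the members, a fixed set of partners, up to 4 further genes per list by size of change and the 5 genes most like the members' profile, and the text gives a part of these. Alternatives changed the pseudocount, filter, scaling, measure, moderation, block and libraries used. Read-based errors cover counting error only.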

Additional observations from a re-analysis of the deposited data

How the results depend on the processing

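Isg15, Uba7, Ube2l6 and Usp18 kept a positive log2 fold change in all 18 alternative fits. With the replicate block 2 members passed, Isg15 (2.06) and Ube2l6 (1.30). They also passed with the block and median-of-ratios scaling (2.102 and 1.34, 2 members) and, joined by Usp18, with the block on count values (1.86, 1.28 and 1.23, 3 members), alternatives chosen after seeing the data. With the block and without pair 1, 2 members passed (2.03 and 1.28), without pair 2, 0 (1.53 and 1.26), and without pair 3, 3 (2.62, 1.35 and, for Usp18, 1.97). Usp18 was at 0.80 without pair 1, 1.01 without pair 2 and 1.30 with the block and median-of-ratios scaling, and did not pass in these. In unblocked fits 0 members passed, with adjusted p from 0.054 to 0.349 for Isg15. Herc6 turned to -0.056 with the block without pair 1 and to -0.048 without wild-type replicate 1. Leaving out 1 library moved Isg15 between 1.71 and 2.43, Ube2l6 between 1.11 and 1.54, Uba7 between 0.48 and 0.54, Usp18 between 0.98 and 1.76 and Herc6 between -0.048 and 0.16. The 4 ratios to Isg15 kept a negative difference in every alternative, ranging over left-out libraries from -1.93 to -1.22 for Uba7, -1.13 to -0.36 for Ube2l6, -2.28 to -1.55 for Herc6 and -1.21 to -0.41 for Usp18. Without a block 12 genes were higher and 6 lower. These counts were 131 and 88 with the block, 126 and 76 with the block and median-of-ratios scaling, 111 and 98 with the block on count values, and 338 and 318, 13 and 8, and 117 and 84 with the block without pairs 1, 2 and 3. Without the block they were 0 and 0 with no filter on low values (967 genes at an unadjusted limma p under 0.05), 16 and 11 on count values, 8 and 1 without trend and robust moderation, and 0 to 3 higher and 0 to 1 lower with 1 library left out. The cause of these shifts was not tested. Fits without a pair leave few libraries to estimate the spread.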
